A study of Homo sapiens with 12 samples.

Results

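The zinc finger gene clusters of human chromosome 19 were followed through 3 histone marks in a colorectal cancer cell line and its derivatives. The clusters were taken as 6 windows in hg19 coordinates, numbered along the chromosome: cluster 1 at chr19:11700000-12700000, cluster 2 at chr19:19700000-24400000, cluster 3 at chr19:36600000-38400000, cluster 4 at chr19:44300000-45000000, cluster 5 at chr19:52300000-54200000 and cluster 6 at chr19:56500000-59100000. A deposited region counted as a member when its midpoint lay inside a window, so no measured value chose the members. Of the 244278 regions of the 3 marks, 1710 were members, against 8086 on the rest of chromosome 19. The members were 270 H3K4me3 regions, 273 H3K27me3 intervals and 1167 H3K79me3 regions. The files name no genes and no hg19 annotation was used, so the regions carry coordinates only, and the name of the clusters comes from the windows and was not checked against genes.

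SA is a mesenchymal line derived from soft agar colonies, SPH is a mesenchymal line derived from colonospheres, METS is an epithelial line derived from a lung metastasis of a xenograft, and all 3 descend from the epithelial parental line DLD1. All 4 lines were cultured in serum-containing McCoy's 5A, and each line and mark was read by 1 ChIP-seq library, 12 in all, without replicates. A fold change between a derivative and DLD1 therefore compares 2 libraries, and its 95% interval (exact Clopper-Pearson) covers counting error only. The 3 comparisons with DLD1 share the same DLD1 library, and whether a derivative is 1 clone is not stated in the labels.

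Krüppel-associated box (KRAB) zinc finger genes encode the largest family of DNA-binding repressors in the human genome. Their KRAB domain recruits the co-repressor TRIM28, and many of the proteins silence transposable elements. The genes arose by tandem duplication and lie in dense clusters on chromosome 19, where neighbouring genes are similar in sequence; how reads that match several copies were counted is not given in the sources used here. In RefSeq's GRCh38.p14 gene table, 250 of the 517 protein-coding genes with a ZNF symbol were on chromosome 19 (48.4%), against 1451 of all 20056 protein-coding genes (7.23%). H3K4me3 marks the promoters of active genes, H3K27me3 is laid down by the Polycomb repressive complex over silent genes, and H3K79me3 is made by DOT1L over the first part of transcribed genes.

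The libraries held 6722508 to 7753937 counts for H3K4me3, 15605814 to 20410151 for H3K27me3 and 6165169 to 7521451 for H3K79me3, summed over all regions. Levels are given as CPM (counts scaled to a common total, here these sums). Ratios to DLD1 were taken as log2 of CPM plus 0.5 CPM, in regions with a mean of at least 20 counts over the 4 lines. That minimum was met by 242 of the 270 H3K4me3 members, 123 of the 273 H3K27me3 members and 649 of the 1167 H3K79me3 members. A low region that is high in some lines can pass it where one that is low in all lines cannot, so counts over the regions that passed are not counts over all members. The part of the H3K27me3 table used here ended at 33.8 Mb on chromosome 19, so that mark was read in clusters 1 and 2, and clusters 3 to 6 were not analysed here for it.

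Pooled over the 6 clusters, H3K4me3 regions were sparser than elsewhere on the chromosome, but not in every cluster by much. The windows held 21.3 H3K4me3 regions per Mb, against 37.0 per Mb on the rest of chromosome 19. Cluster 2, the widest window, had the fewest at 9.15 per Mb, and clusters 3 and 5 had 22.8 and 19.5. Clusters 1, 4 and 6 were near the rest of the chromosome, at 36.0, 35.7 and 33.8 per Mb. The length of the rest ran from the first to the last region of the chromosome, less the windows, and includes any stretch without regions. Joined across gaps of less than 1 kb, the 270 regions formed 194 separate sites, of which 128 were single regions, 60 were pairs and 6 held 3 regions or more. H3K79me3 lay within 5 kb of 202 of the 242 H3K4me3 members that passed the minimum (83.5%), against 1134 of 1588 on the rest of chromosome 19 (71.4%).

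Per kb of region, the median H3K4me3 level of the members was 66.1 CPM in SA, 75.6 in SPH, 67.8 in METS and 65.4 in DLD1. On the rest of chromosome 19 it was 58.3, 61.7, 56.8 and 60.4 CPM per kb in the same order of lines. Pooled over the 6 clusters, the members were thus higher in 4 of 4 lines, by 0.21 ± 0.08 on the log2 scale (mean ± SD, n = 4 lines, exact two-sided sign-flip permutation p = 0.13, the smallest that 4 lines allow). This did not hold for each cluster. Cluster 2 was below the rest in every line, at 33.0 in SA, 44.4 in SPH, 41.8 in METS and 32.1 in DLD1. Cluster 5 was below it in SA, METS and DLD1, at 52.0, 53.6 and 50.5, and above it in SPH, at 67.5. Clusters 1, 3 and 6 were above the rest in every line, and cluster 4 in all but DLD1. H3K79me3 went the other way from the pooled H3K4me3 level. Its members had medians of 8.30 CPM per kb in SA, 8.48 in SPH, 9.91 in METS and 8.54 in DLD1, against 11.0, 15.7, 15.4 and 12.3 on the rest of the chromosome. That difference was −0.61 ± 0.20 on the log2 scale, lower in the clusters in 4 of 4 lines (n = 4 lines, exact permutation p = 0.13). H3K27me3 in clusters 1 and 2 differed from the rest of the chromosome up to 33.8 Mb by −0.21 ± 0.24 on the log2 scale (n = 4 lines, exact permutation p = 0.25), lower in 3 lines and higher by 0.13 in SPH. The lines descend from one parent and are not independent donors.

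Most H3K4me3 members kept nearly the same level in every line. Of the 242 that passed the minimum, 226 stayed within 1.5-fold of DLD1 in SA (93.4%, against 92.4% of all 29340 H3K4me3 regions that passed), 192 in SPH (79.3%, against 80.3%) and 225 in METS (93.0%, against 90.1%). Their median log2 ratio to DLD1 was 0.02 in SA, 0.10 in SPH and −0.02 in METS, beside −0.01, 0.02 and −0.03 over all regions. The strongest member of each cluster was among them. In cluster 6 it was chr19:58920081-58920688, with 968 counts in SA, 747 in SPH and 1025 in METS, against 790 in DLD1. In cluster 1 it was chr19:11849108-11849696, with 820, 727 and 744 counts in SA, SPH and METS, against 644 in DLD1. In cluster 4 it was chr19:44598615-44599226, with 589, 632 and 507 counts in SA, SPH and METS, against 468 in DLD1. The strongest of cluster 2, chr19:19773963-19774450, had 957, 731 and 947 counts, against 907 in DLD1. Those of cluster 3, chr19:36605250-36605699, and cluster 5, chr19:52772954-52773371, had 517 and 549 counts in SPH, against 443 and 537 in DLD1. All 6 lay within 1.5-fold of DLD1 in CPM in each derivative.

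The clusters differed among themselves in SPH. The median log2 ratio of SPH to DLD1 was −0.15 in cluster 1, where 7 of 33 regions were above DLD1, and 0.22 in cluster 4, where 19 of 22 were. Cluster 5 was close to cluster 4, at 0.18 with 26 of 31 regions above DLD1, and clusters 2, 3 and 6 had medians of 0.11, 0.10 and 0.07. Over all H3K4me3 regions, 51.8% were above DLD1 in SPH. In SA the cluster medians ran from −0.07 to 0.07, and in METS from −0.06 to 0.07.

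A 2-fold difference was uncommon, and in the mesenchymal lines it was more often a lower level. In SPH, 11 members were at least 2-fold lower than in DLD1 (4.55%, against 2.75% of all regions and 43 of 1588 on the rest of chromosome 19) and 6 were at least 2-fold higher (2.48%, against 2.69%). In SA, 8 were lower (3.31%, against 1.35%) and 1 was higher (0.413%, against 0.262%). METS had the opposite balance, with 1 lower (0.413%, against 1.15%) and 5 higher (2.07%, against 1.01%). That balance rests on regions with few counts: with a minimum mean of 50 counts, METS had 1 lower and 1 higher. At that minimum SPH still had 6 lower and 2 higher, and SA 4 lower and 0 higher. The percentages come from few regions, and no test of the members against other regions was made. For SPH, the member nearest the line on the inside had a log2 ratio of 1.08 in size and the nearest on the outside 0.995.

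**Figure D1:**
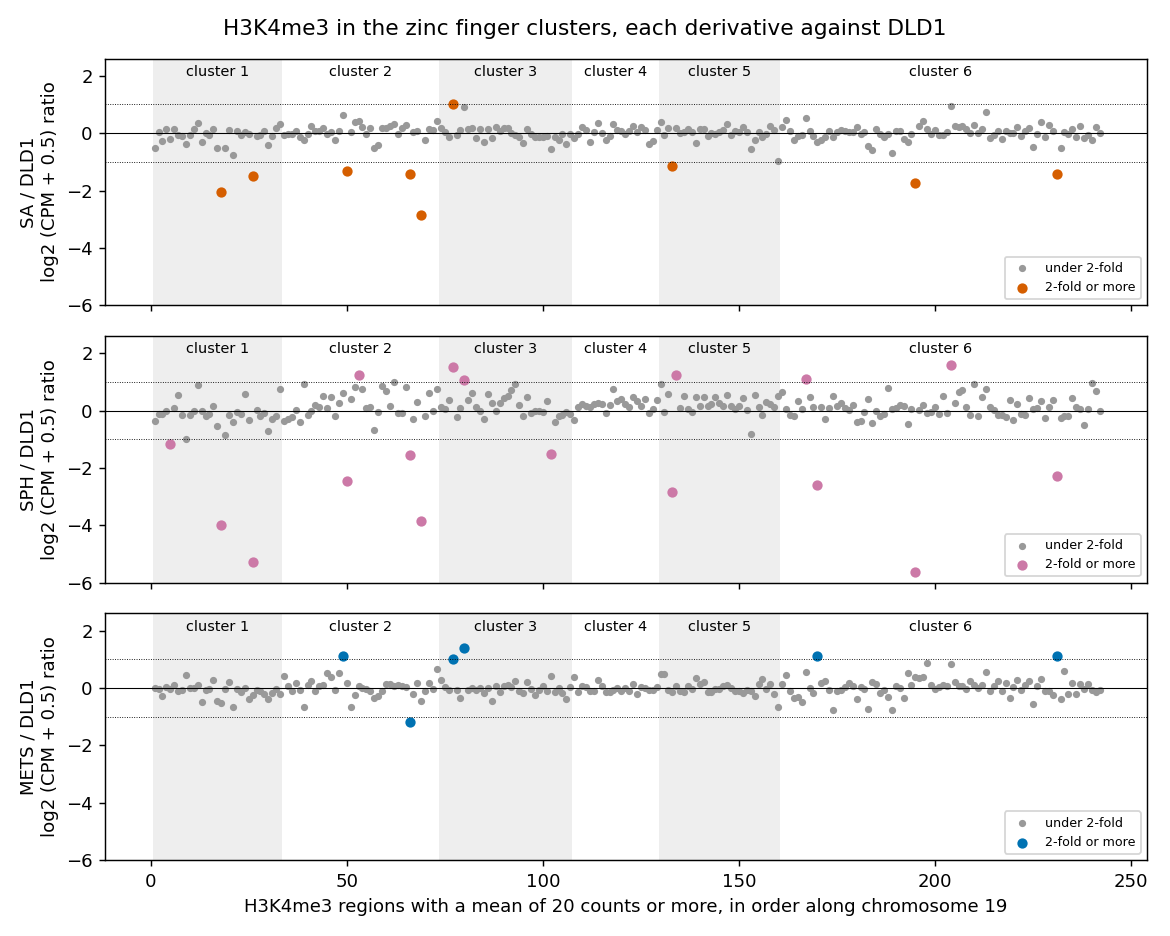
Log2 ratio of each derivative (SA, SPH, METS, top to bottom) to DLD1, from CPM plus 0.5 CPM, for the 242 H3K4me3 regions of the 6 zinc finger clusters with a mean of at least 20 counts, placed in order along chromosome 19. Coloured points are past 2-fold (dotted lines), and nearly all points lie close to 0; the lowest points stand in the SPH panel, at −5.62 and −5.27, in clusters 6 and 1.

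The deepest difference was in cluster 6, at chr19:58458529-58458946 (418 bp, called 6b here from its cluster and its order among the regions lower in SPH). It had 70 counts in SA, 1 in SPH and 299 in METS, against 208 in DLD1. SPH was almost empty, SA had 29.2% of the DLD1 level and METS was at 132%. The ratio of SPH to DLD1 was 0.00452 (95% interval 0.000114 to 0.0255), and that of SA to DLD1 was 0.292 (0.219 to 0.384). In bulk libraries, fewer cells that carry the mark and less of it in each cell cannot be told apart. In cluster 1, chr19:12475982-12476440 (1c) had 93 counts in SA, 3 in SPH and 214 in METS, against 235 in DLD1. Here the ratio to DLD1 was 0.343 in SA (0.267 to 0.438), 0.0120 in SPH (0.00246 to 0.0355) and 0.838 in METS (0.693 to 1.01). These were the 2 members of 198 with at least 10 CPM in DLD1 with a level under 10% of it in SPH (1.01%, against 0.22% of all such regions and 1 of 1228 on the rest of chromosome 19), while SA and METS had 0 such members (against 0.00467% and 0.0%).

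Lower starting levels were seen at the next group. Region 1b, chr19:12146050-12146475, had 15 counts in SA, 1 in SPH and 47 in METS, against 64 in DLD1. In cluster 2, chr19:23945854-23946375 (2c) had 6 counts in SA, 1 in SPH and 45 in METS, against 58 in DLD1. Both mesenchymal lines were thus far below both epithelial lines at these regions. Also in cluster 2, 26 counts in SA, 9 in SPH and 75 in METS were read at chr19:21579956-21580379 (2a), against 61 in DLD1. Cluster 5 had 1 such region, chr19:52598465-52598919 (5a), with 51 counts in SA, 12 in SPH and 100 in METS, against 102 in DLD1. SPH was 9.04-fold below DLD1 there (4.96 to 18.1) and SA was 2.31-fold below (1.63 to 3.30), with METS at 90.2% of DLD1.

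At a pair of cluster 6 regions METS was the line that stood high. Region 6a, chr19:57078939-57079387, had 25 counts in SA, 2 in SPH and 70 in METS, against 28 in DLD1, so METS was 2.30-fold above DLD1 (1.47 to 3.71) and SA did not differ from it beyond counting error. Region 6c, chr19:59049758-59050212, had 7 counts in SA, 2 in SPH and 56 in METS, against 22 in DLD1, and METS was 2.34-fold above DLD1 (1.41 to 4.03).

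The other 3 regions kept more signal in SPH. Region 3a, chr19:38145693-38146208, had 101 counts in SA, 46 in SPH and 191 in METS, against 131 in DLD1. Region 1a, chr19:11805306-11805723, was strong, with 406 counts in SA, 191 in SPH and 434 in METS, against 407 in DLD1, so SPH alone was past 2-fold, at 2.27-fold below DLD1 (1.90 to 2.71). Region 2b, chr19:23598367-23598802, was low in all 3 derivatives, with 51 counts in SA, 43 in SPH and 57 in METS, against 125 in DLD1. Across the 11 regions, SA ran from 8.97% to 86.5% of the DLD1 level, SPH from 0.452% to 44.1% and METS from 42.0% to 234%. Since SPH chose these 11 and all 3 derivatives are read against the same DLD1 library, the ranges describe the regions and test nothing.

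**Figure D2:**
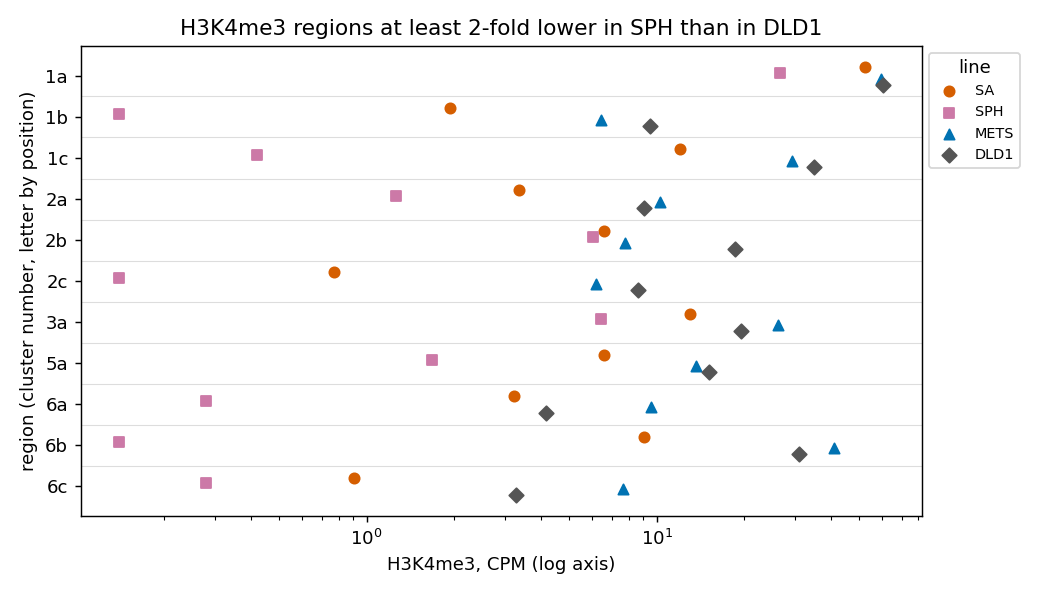
H3K4me3 level in CPM (log axis) of the 11 zinc finger cluster regions at least 2-fold lower in SPH than in DLD1, in SA (circles), SPH (squares), METS (triangles) and DLD1 (diamonds), 1 library per line. Regions are named by cluster number and a letter by position; at 6b SPH is at 0.140 CPM, beside 9.03 in SA, 40.9 in METS and 30.9 in DLD1, and at 1a all 4 lines lie between 26.7 and 60.5.

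The contrast of the mesenchymal lines with the epithelial lines could be tested, with SA and SPH as 1 group and METS and DLD1 as the other, each line standing for 1 replicate. The p-values then measure only the spread between these 4 related lines. With edgeR's quasi-likelihood test and Benjamini-Hochberg adjustment over all 35629 H3K4me3 regions with a count, 4 of 265 members tested fell in the mesenchymal lines (1.51%, against 0.292% of all regions) and 0 rose (against 0.00561%). The called members were 2c (log2 difference −3.93, adjusted p = 0.0135), 6b (−2.94, adjusted p = 0.0276), 6c (−3.16, adjusted p = 0.0403) and 1b (−2.89, adjusted p = 0.0449). Both mesenchymal lines were below both epithelial lines at each of the 4. Region 1c was at adjusted p = 0.0642 and 2a at 0.0540, both short of the threshold of 0.05. At an unadjusted p under 0.05 there were 36 members, 16 higher and 20 lower (13.6%, against 11.0% of all regions). The calls were fragile: with TMM factors in place of library totals, 2c held (edgeR adjusted p = 0.0364), while 6b had adjusted p = 0.0763, 6c 0.0770 and 1b 0.0852. By DESeq2's Wald test, 2c had adjusted p = 0.00641 and 6b 0.99984. In a fit without 1 line, the lone line of a group has no spread of its own, so such a fit does not show that a call is stable. Without SPH the log2 differences were −3.23 at 2c, −1.99 at 6b, −2.03 at 1b and −2.58 at 6c. Without METS that of 6c was −2.41. The number of members called was 3 without SPH, 5 without METS and 10 without DLD1, each of them lower. Without SA, where SPH alone stands for the mesenchymal lines, 46 of 264 were called, 26 higher and 20 lower, beside 2455 higher and 2880 lower of all 35560 regions, so the count of 0 higher holds only with SA in the test.

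The lower H3K4me3 was local. On either side of 6b the next H3K4me3 members lay 30.6 kb and 203 kb away. The nearer had 374 counts in SA, 369 in SPH and 386 in METS, against 333 in DLD1, and the farther had 255, 202 and 260, against 186 in DLD1. Neither showed the low SPH level of 6b. The members 31.6 kb and 35.0 kb from 1c were likewise full in SPH, at 360 and 505 counts, against 426 and 464 in DLD1. An exception was 1b, whose next region 0.293 kb away had 13 counts in SA, 1 in SPH and 25 in METS, against 24 in DLD1, so both regions of that site were low together. Next to 2b the order of lines was the opposite: the region 0.326 kb before it had 90 counts in SA, 122 in SPH and 71 in METS, against 64 in DLD1, while 2b itself was low in the 3 derivatives.

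H3K79me3, the mark of transcribed gene bodies, was low in SPH beside some of these regions, level at 2c and low in METS at 2b. Within 5 kb of 6b lay 4 H3K79me3 regions that summed to 23 counts in SA, 3 in SPH and 122 in METS, against 39 in DLD1. SPH was 10.7-fold below DLD1 there (3.39 to 53.9) and METS 3.66-fold above it (2.53 to 5.39), the same order of lines as for H3K4me3, while SA was 1.64-fold below with an interval that includes no difference (0.96 to 2.88). Beside 3a, another 4 regions summed to 35 counts in SA, 16 in SPH and 78 in METS, against 81 in DLD1. That put SPH 4.15-fold below DLD1 (2.41 to 7.60) and SA 2.24-fold below (1.49 to 3.43). Beside 1c the only H3K79me3 region had 0 counts in SA, 0 in SPH and 6 in METS, against 7 in DLD1, too few for a fold. Beside 2c the counts were level, at 22 in SA, 21 in SPH and 23 in METS, against 25 in DLD1. Beside 2b, 2 regions summed to 47 counts in SA, 22 in SPH and 13 in METS, against 35 in DLD1. METS was 2.30-fold below DLD1 there (1.19 to 4.74), while the intervals for SA and SPH included no difference. Beside 1a and 1b DLD1 had only 9 and 7 counts, and every derivative's interval included no difference. No H3K79me3 region was within 5 kb of 2a, 5a, 6a or 6c. The edgeR test was run on single regions, not on these sums. It called 0 of all 156120 H3K79me3 regions in either direction, so it cannot set these apart.

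H3K27me3, the Polycomb mark, could be read at the regions of clusters 1 and 2. The narrowest interval containing 2c, 65.1 kb wide, had 268 counts in SA, 368 in SPH and 314 in METS, against 206 in DLD1, so SPH was 1.37-fold above DLD1 (1.15 to 1.63). At 2a the 30.5 kb interval had 115 counts in SA, 142 in SPH and 120 in METS, against 78 in DLD1, with SPH 1.39-fold above (1.05 to 1.86). Higher levels in SPH were common in cluster 2, where 67 of 85 intervals that passed the minimum were above DLD1 (against 37.5% of all intervals). The upper quartile of their log2 ratio was 0.51, and the summed counts of all 209 intervals there, with shared reads, were at 1.24 of DLD1. These values therefore do not set 2c and 2a apart. At 2b SA was the highest, with 164 counts, beside 136 in SPH and 118 in METS, against 72 in DLD1, and the ratio of SA to DLD1 was 1.88 (1.42 to 2.52). At 1c the interval did not differ beyond counting error, with 60 counts in SA, 89 in SPH and 95 in METS, against 62 in DLD1. The intervals are far wider than the H3K4me3 regions inside them, so they do not show where in the interval the counts lay.

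Some of the regions with more H3K4me3 in the derivatives had low counts in every line. At chr19:36627466-36627953 in cluster 3 all derivatives were past 2-fold, with 30 counts in SA, 40 in SPH and 28 in METS, against 11 in DLD1. SPH was 3.42-fold above DLD1 there (1.72 to 7.38), and SA and METS were 2.36-fold (1.15 to 5.23) and 2.34-fold (1.13 to 5.22) above. A neighbour in the same cluster, chr19:36632395-36632536, had 21 counts in SA, 22 in SPH and 29 in METS, against 8 in DLD1. Both have low counts and wide intervals.

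The better-read higher region was chr19:52642014-52642350 in cluster 5, with 136 counts in SA, 262 in SPH and 119 in METS, against 103 in DLD1. Only SPH stood apart there, at 2.39-fold above DLD1 (1.90 to 3.03), and the region is the neighbour of 5a, 43.1 kb away, where SPH was low. At chr19:56652827-56653317 in cluster 6 there were 141 counts in SA, 193 in SPH and 134 in METS, against 83 in DLD1, which put SPH 2.19-fold above DLD1 (1.68 to 2.86). The other higher members had fewer counts. In SPH they were chr19:58816104-58816300, with 26 counts in SA, 39 in SPH and 22 in METS, against 10 in DLD1, and chr19:21796807-21797238, with 20, 35 and 14, against 12 in DLD1. In METS, chr19:21541816-21542246 had 81 counts in SA, 73 in SPH and 107 in METS, against 44 in DLD1, 2.24-fold above DLD1 in METS (1.56 to 3.26). With all 4 lines, no member rose by the edgeR test, and none with 10 CPM in a derivative had under 10% of that in DLD1.

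H3K79me3 members past 2-fold were mostly higher in SPH and METS, at a share near that of all regions in SPH and below that of the rest of chromosome 19 in both. Among the 649 members that passed the minimum, 0 were at least 2-fold higher in SA and 3 were lower (against 0.435% and 1.0% of all 88497 regions). In SPH 21 were higher (3.24%, against 2.99%) and 8 lower (1.23%, against 3.2%), and in METS 34 were higher (5.24%, against 3.41%) and 3 lower (0.462%, against 3.08%). On the rest of chromosome 19, of 3609 regions, 4 were higher and 70 lower in SA, 326 higher (9.03%) and 20 lower in SPH, and 280 higher (7.76%) and 47 lower in METS. Within 1.5-fold of DLD1 were 586 of the 649 in SA (90.3%, against 88.1% of all regions), 512 in SPH (78.9%, against 75.0%) and 493 in METS (76.0%, against 74.6%). Cluster 6 held 15 of the 21 higher regions in SPH and 22 of the 34 in METS, with 224 of the 649 members.

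The median log2 ratio of the H3K79me3 members to DLD1 was 0.00 in SA, 0.07 in SPH and 0.11 in METS. On the rest of chromosome 19 the medians were −0.14, 0.28 and 0.20 in the same order, and over all regions they were 0.00, −0.09 and −0.06. Cluster 6 was like the rest of the chromosome in SPH and METS, with medians of 0.23 and 0.31, and 169 of its 224 regions were above DLD1 in METS (75.4%, against 45.0% of all regions). Clusters 1 and 4 were lower, at −0.03 and −0.10 in SPH and −0.14 and −0.17 in METS. With DESeq2 size factors the median of all regions in SPH moved by over 0.1, to 0.03, and that of the members to 0.19. The members' median in METS went to 0.03 with TMM factors and 0.02 with DESeq2 size factors, so the value of 0.11 in METS rests on scaling by library totals.

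**Figure D3:**
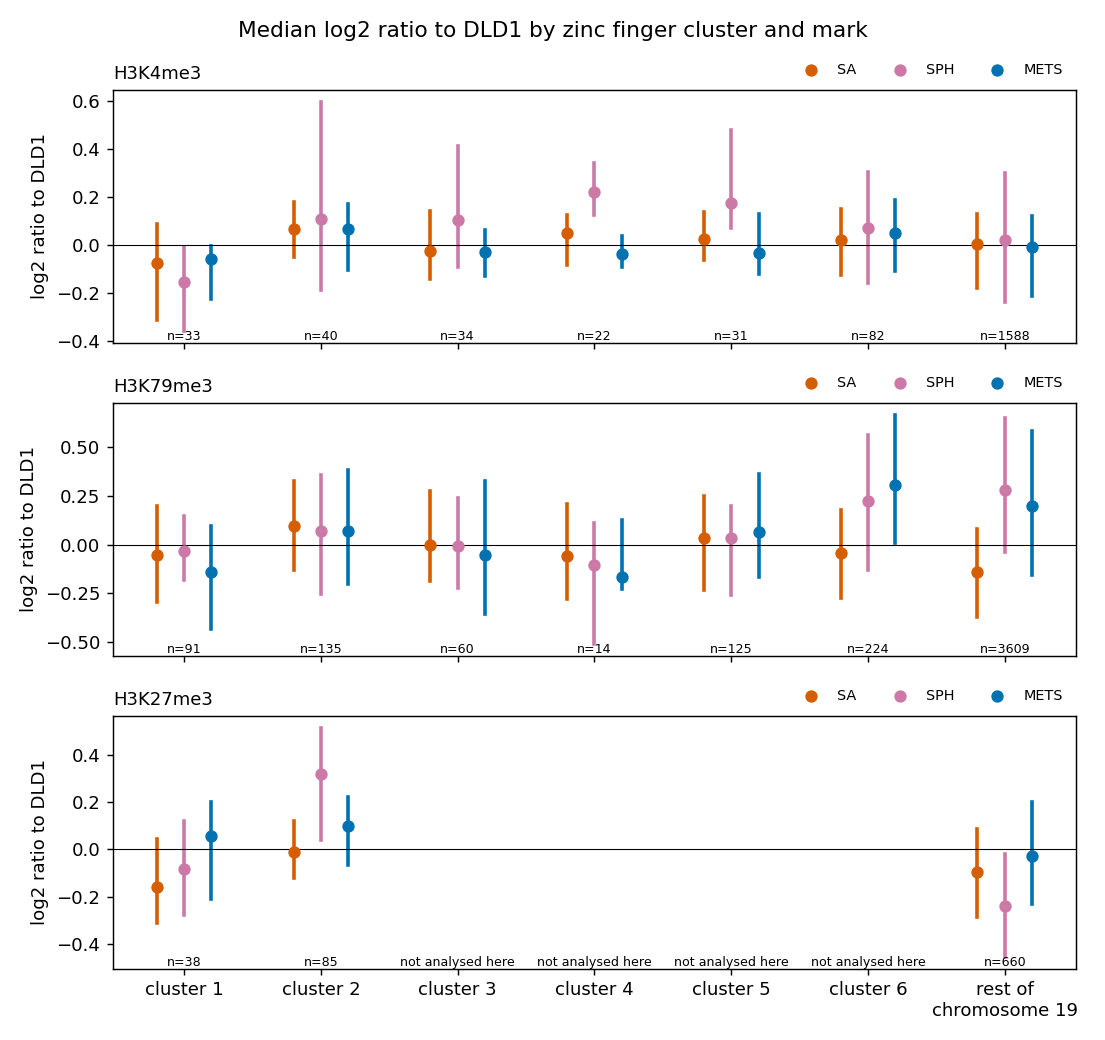
Median log2 ratio to DLD1 (points) with the interquartile range (bars) in SA, SPH and METS, for each zinc finger cluster and the rest of chromosome 19, by mark; n is the number of regions with a mean of at least 20 counts. H3K79me3 in cluster 6 stands at 0.23 in SPH and 0.31 in METS while clusters 1 to 5 lie between −0.17 and 0.10 in all 3 derivatives, and H3K27me3 in SPH is at 0.32 in cluster 2, against −0.24 on the rest of the chromosome.

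The longest run of higher H3K79me3 regions was in cluster 6, where one stretch held 12 of the 34 in METS and an overlapping one 10 of the 21 in SPH. Between chr19:56610284 and chr19:56629563 lay 26 H3K79me3 members, which summed to 2041 counts in SA, 3378 in SPH and 3294 in METS, against 2320 in DLD1. SPH was 1.78-fold above DLD1 over the stretch (1.68 to 1.87), METS 1.66-fold above (1.57 to 1.75), and SA at 0.91 of it (0.857 to 0.966). Of the 26 regions, 26 were above DLD1 in SPH, 25 in METS and 7 in SA (against 42.3%, 45.0% and 49.5% of all regions), a count that the choice of the stretch favours. On the rest of chromosome 19 the shares above DLD1 were 72.3% in SPH, 64.3% in METS and 33.7% in SA. In cluster 6 as a whole they were 68.8%, 75.4% and 46.0%, so the order of lines was not particular to the stretch. The higher regions in SPH began earlier, and over chr19:56604127-56622876 the 23 members summed to 915 counts in SA, 1658 in SPH and 1578 in METS, against 1017 in DLD1. Within it, chr19:56619214-56619613 had 52 counts in SA, 157 in SPH and 120 in METS, against 64 in DLD1, and chr19:56621982-56622328 had 51, 75 and 75, against 29 in DLD1. H3K4me3 did not follow: the 5 H3K4me3 members within 5 kb of the first stretch summed to 958 counts in SA, 803 in SPH and 856 in METS, against 775 in DLD1, with ratios in CPM of 1.07, 0.97 and 1.02. Here SPH, mesenchymal, and METS, epithelial, were high together, so the stretch does not divide the lines by phenotype. The stretch was picked from its own values, and its ratios are a description.

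**Figure D4:**
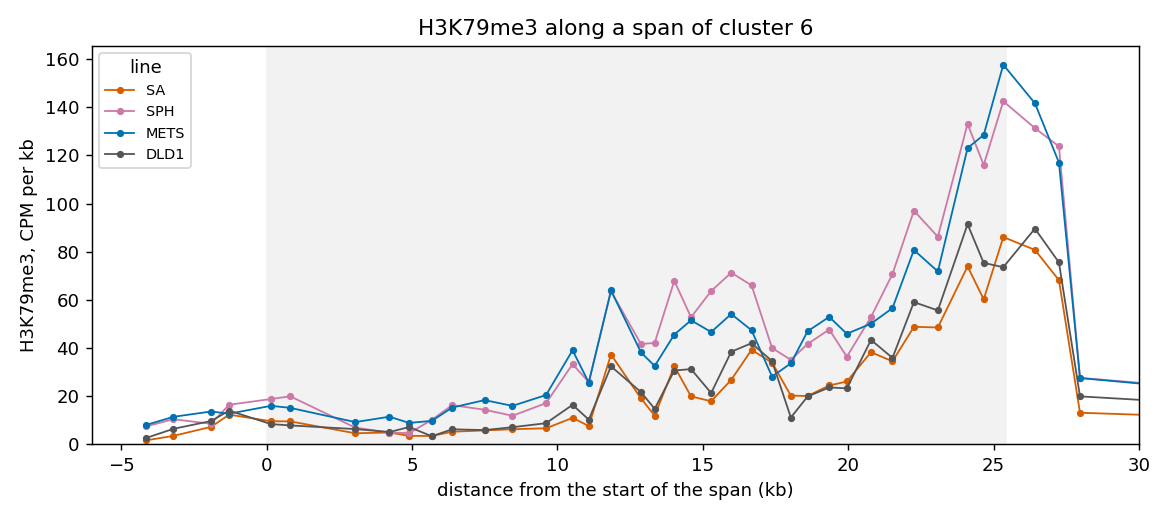
H3K79me3 level in CPM per kb of region in SA, SPH, METS and DLD1 (1 library each) against the distance in kb from the start of the cluster 6 stretch in which 10 regions were at least 2-fold higher in SPH; the shaded part covers that stretch and the one found in METS. The SPH and METS curves run above those of SA and DLD1 along nearly all of the shaded part, and the SA and DLD1 curves lie close together.

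Shorter stretches had a like pattern. At chr19:19770796-19774423, beside the strongest H3K4me3 member of cluster 2, 5 H3K79me3 regions summed to 306 counts in SA, 478 in SPH and 566 in METS, against 314 in DLD1. SPH was 1.86-fold (1.61 to 2.15) and METS 2.11-fold (1.83 to 2.43) above DLD1, while SA was level at 1.01. Its highest ratio was at chr19:19774023-19774423, with 80 counts in SA, 177 in SPH and 218 in METS, against 77 in DLD1. At chr19:59027265-59028659 near the end of the chromosome, 98 counts in SA, 161 in SPH and 152 in METS, against 68 in DLD1, put SPH 2.89-fold above DLD1 (2.16 to 3.89). One of its 2 regions, chr19:59028213-59028659, had the highest log2 ratio of SPH to DLD1 among the H3K79me3 members that passed the minimum, 1.72, a fold of 3.55 (2.37 to 5.44). Another, chr19:58395698-58400189, was high in METS only, with 269 counts in SA, 148 in SPH and 429 in METS, against 244 in DLD1, and within it chr19:58399754-58400189 was 3.82-fold above DLD1 in METS (2.51 to 5.96). The H3K4me3 member beside it had 304 counts in SA, 249 in SPH and 503 in METS, against 324 in DLD1, so both marks were higher in METS and lower in SPH there, at 1.43-fold and 0.722-fold of DLD1 for H3K4me3. The reverse of the cluster 6 stretch was seen at chr19:21208158-21211584 in cluster 2, where 71 counts in SA and 50 in SPH stood beside 127 in METS, against 119 in DLD1. SPH was at 0.513 of DLD1 (0.361 to 0.719) and SA at 0.617 (0.453 to 0.835), with METS at 1.25 (0.964 to 1.62).

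In METS 2 further stretches were higher: at chr19:52405392-52407379 the 3 regions summed to 2.23 times DLD1, and at chr19:58740336-58753639 the 16 regions to 1.49 times. In SPH the 2 regions of chr19:36604253-36605608 summed to 2.19 times DLD1. Among single regions, chr19:59056162-59056558 in cluster 6 was strong, with 187 counts in SA, 477 in SPH and 415 in METS, against 284 in DLD1, and SPH was 2.05-fold above DLD1 (1.77 to 2.38). In cluster 5, chr19:53191423-53191891 had 83 counts in SA, 36 in SPH and 60 in METS, against 104 in DLD1. Most of the others named by size of change had lower counts. The largest in METS was at 6b itself, where chr19:58458384-58458935 had 8 counts in SA, 3 in SPH and 64 in METS, against 17 in DLD1, 4.40-fold above DLD1 in METS (2.55 to 8.02). The largest in SA was chr19:57703179-57703497, with 17 counts in SA, 31 in SPH and 53 in METS, against 49 in DLD1. The other 2 lower regions in SA were chr19:53237651-53238040, with 9 counts in SA, 23 in SPH and 32 in METS, against 26 in DLD1, and chr19:12248219-12248613, with 13, 21 and 27, against 31. In SPH, chr19:58202763-58203064 had 31 counts in SA, 10 in SPH and 32 in METS, against 33 in DLD1. The 3 lower regions in METS were chr19:12403400-12403612, chr19:12507170-12507603 and chr19:23597380-23597837, with 13, 15 and 12 counts in METS, against 38, 43 and 34 in DLD1. By edgeR's quasi-likelihood test of mesenchymal against epithelial lines, 0 of 1157 H3K79me3 members were called in either direction (against 0.0% of all 156120 regions). At an unadjusted p under 0.05 there were 45, 4 higher and 41 lower (3.89%, against 2.99%). The share by direction over all regions was not taken. Fitted to regions with a mean of at least 20 counts, edgeR gave 11 of 649 members at that unadjusted p, 4 higher and 7 lower, beside 1549 of all 88497. The lean to lower members was thus weaker there and rests largely on regions with few counts. DESeq2's Wald test called 0 members with 8 at an unadjusted p under 0.05.

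H3K27me3 was nearly level in the clusters that could be read. Of 123 intervals that passed the minimum, 116 lay within 1.5-fold of DLD1 in SA (94.3%, against 90.7% of all 26322 intervals), 103 in SPH (83.7%, against 84.4%) and 117 in METS (95.1%, against 90.6%). Past 2-fold there were 0 in SA (against 0.444% higher and 0.494% lower of all intervals) and 0 in METS (against 0.669% and 0.973%). In SPH 1 was higher and 0 were lower (against 1.03% and 2.05%), while on the rest of the chromosome up to 33.8 Mb 7 of 660 were higher and 29 lower. The higher interval, chr19:22703797-22710751 in cluster 2, had 17 counts in SA, 43 in SPH and 28 in METS, against 11 in DLD1, and SPH was 2.99-fold above DLD1 (1.52 to 6.43).

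Small differences in SPH separated cluster 2 from cluster 1. In cluster 2, 67 of 85 intervals that passed the minimum were above DLD1 in SPH (78.8%, against 37.5% of all intervals), with a median log2 ratio of 0.32. Cluster 1 had 14 of 38 above DLD1 and a median of −0.08, and the rest of the chromosome had a median of −0.24. Summed over all members, passed or not, SPH was at 1.24 of DLD1 in cluster 2 (209 intervals) and 0.906 in cluster 1 (64 intervals). Of the 273 intervals, 145 overlap an earlier one and share its reads, so they are not separate observations. The sums count shared reads more than once, so no counting interval is given for them. Over both clusters 79 of 123 intervals were above DLD1 in METS (64.2%, against 47.7%), and the medians were −0.04 in SA, 0.13 in SPH and 0.07 in METS, beside −0.14, −0.10 and −0.02 over all intervals. With TMM factors the median of all intervals moved to −0.01 in SA and 0.01 in SPH, and those of the members to 0.09 and 0.23, which turns the sign in SA. By edgeR, 0 of 266 members were called (against 0.343% higher and 0.294% lower of all intervals), 8 had an unadjusted p under 0.05 (3.01%, against 8.81%), and DESeq2's Wald test called 0.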

How the data were processed

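ChIP-seq of 3 histone marks in 4 lines was analysed from 12 libraries, 1 per line and mark. The authors deposited tables of counts per region, judged to be raw counts from their values (whole numbers with unequal totals). The build was hg19, per the submitters' processing notes. How reads were aligned, regions called and counted, and whether an input was sequenced, is not given in the sources used here. The titles call all lines parental, so lines were taken from the descriptions and characteristics. The H3K27me3 table was held in part, with 7773 rows not held, so its totals and CPM cover the rest.

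CPM used library totals; log2 ratios added 0.5 CPM, with a minimum mean of 20 counts. Folds carry Clopper-Pearson (exact) 95% intervals for counting error. Mesenchymal and epithelial lines were compared with edgeR 4.0.16 (quasi-likelihood, library totals, every region with a count) in R 4.3.3, and with DESeq2 1.42.0 as an alternative; the code was tested on simulated counts. Levels in the windows and on the rest of chromosome 19 were compared by exact sign-flip permutation over lines (SciPy 1.17.1). The regions named are, per mark and derivative, the members past 2-fold with the largest ratios each way (5 for H3K4me3, 3 for the others), H3K4me3 members nearly lost, members called by edgeR and the strongest H3K4me3 member per cluster. Other members at least 2-fold lower or higher and the H3K79me3 stretches (2-fold regions less than 10 kb apart) were added after their values were seen. The windows, marks and lists were chosen with earlier results of these data known. Alternatives were other scaling factors, count minimums, added CPM and each line left out.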

Additional observations from a re-analysis of the deposited data

How the results depend on the processing

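No paired analysis was possible because the labels give no replicate numbers and each line and mark has 1 library. Of 138 counts of members recomputed under an alternative, 96 stayed within 1.5 times and 42 moved further. The 4 H3K4me3 members called by edgeR were chosen as lower, with both mesenchymal lines below both epithelial lines at each. Their lower direction in the alternative fits of the same libraries was therefore given beforehand and tests nothing. With TMM factors the H3K27me3 median in SA turned sign. For H3K4me3, no count minimum gave 8 members higher in METS. A minimum of 50 counts gave 0 higher and 4 lower in SA, 2 higher and 6 lower in SPH, and 1 higher and 1 lower in METS. With 0.1 added CPM, 3 were higher in SA. For H3K27me3, no minimum gave 1 lower in SA; a minimum of 50, or leaving out overlapping intervals, gave 0 higher in SPH; 0.1 added CPM gave 1 lower in SA, 1 lower in SPH, and 1 higher and 1 lower in METS. For H3K79me3, TMM factors gave 39 higher in SPH and 6 lower in METS, and DESeq2 size factors 40 and 6. Without a minimum, SA had 12 higher and 21 lower, SPH 42 higher and 34 lower, and METS 86 higher and 5 lower. A minimum of 50 gave 0 lower in SA, 12 higher and 1 lower in SPH, and 14 higher and 0 lower in METS. With 0.1 added CPM SA had 2 higher and 7 lower, SPH 33 higher and 14 lower, and METS 6 lower. The count of H3K4me3 members called by edgeR was 1 with TMM factors, 1 with DESeq2 size factors and 1 with DESeq2's Wald test, where 6b had adjusted p = 0.99984 and 2c 0.00641. Leaving out 1 line gave 3 to 46 called H3K4me3 members, the most without SA and the fewest without SPH, and 0 to 1 for H3K27me3 and for H3K79me3; the lone line of a group is then assumed to vary like the other group. The cause of these shifts was not tested. Depth limits the weak regions most: at chr19:36632395-36632536, with 8 counts in DLD1, the ratio of SPH runs from 1.11 to 6.71, and with 1 library per line no fold to DLD1 has a replicate check.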
